A study of Mus musculus with 24 samples.

Results

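The chaperones of the endoplasmic reticulum (ER) and the genes of the unfolded protein response were followed as a set of 38 genes in mouse B cells that lacked the ETS transcription factors PU.1 (encoded by Spi1), SpiB (encoded by Spib) or both. The set was chosen by gene symbol, and all 38 members were found among the 27179 genes of the raw count tables and passed the filter of 0.5 CPM, counts scaled to the library size, in at least 2 libraries in each of the 3 stages studied. RNA-seq libraries came from lymph node B cells of C57BL/6 mice, which the labels give as 6 to 20 weeks of age, with 2 libraries for each of 4 genotypes in each stage, 24 in all. Controls were Cd23T/+ mice, which carry only the Cre transgene. PU.1 cKO mice were Spi1fl/fl Cd23T/+, SpiB KO mice were Spi1fl/fl Cd23+/+ Spib-/- and therefore carried no Cre, and PU.1 SpiB DKO (hereafter DKO) mice were Spi1fl/fl Cd23T/+ Spib-/-. The Cre is a transgene under Cd23 regulatory sequences that switches on in transitional B cells, whereas Spib is inactivated in every cell of the body. Cells were naive, or had been cultured for 48 h with CD40L (50 ng/ml) and IL-4 (10 ng/ml), a stimulus that imitates T cell help, or for 48 h with LPS (20 µg/ml) and IL-4 (10 ng/ml), a microbial stimulus that acts through Toll-like receptor 4.

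Secreted and membrane proteins fold in the ER with the help of chaperones such as BiP (Hspa5), lectins that bind immature glycans, and enzymes that form disulfide bonds or turn prolines, and proteins that fail to fold are exported for destruction by ER-associated degradation (ERAD). The sensors of the ER membrane, IRE1 (Ern1), ATF6 and PERK (Eif2ak3), watch over this load. IRE1 splices the mRNA of the transcription factor XBP1, ATF6 is cleaved to free a transcription factor, and PERK slows translation and raises ATF4 and CHOP (Ddit3). B cells enlarge this machinery when they turn into antibody-secreting plasma cells, a step for which XBP1 and Blimp-1 (Prdm1) are well known.

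The libraries held 14231188 to 18194629 counts in the naive stage, 9598674 to 61640683 with CD40L+IL-4 and 22757630 to 73658850 with LPS+IL-4, and 1 library, PU.1 cKO with CD40L+IL-4 replicate 2, was far deeper than the other 7 of its stage, which reached 11434235. Ribosomal Rn45s took 0.185% to 3.62% of the counts in naive cells, 0.416% to 6.64% with CD40L+IL-4, where DKO replicate 1 was highest, and 0.490% to 3.26% with LPS+IL-4. Spib stood at 1472 and 1354 CPM in naive control libraries and at no more than 100 CPM in any library of the Spib-/- genotypes. Spi1 counts covered the whole gene and not the floxed exon alone, so they check the deletion only in part. They fell in PU.1 cKO cells of each stage, and in DKO cells in the naive stage and with CD40L+IL-4, but with LPS+IL-4 the DKO libraries, at 63.9 and 58.8 CPM, overlapped the control libraries, at 72.0 and 60.7 CPM (adjusted p = 0.45). The Spi1 count therefore gives no check of the DKO label with LPS+IL-4. The Spib count there, 15 and 11.9 CPM in DKO against 276 and 211 CPM in control libraries, sets DKO cells apart from control and PU.1 cKO cells but not from SpiB KO cells (18.1 and 14.3 CPM). In naive cells Spi1 stood at 103 and 110 CPM in DKO libraries, between PU.1 cKO (59.5 and 53.2 CPM) and control libraries (155 and 174 CPM). From read coverage, which was not analysed here, the study describes the floxed Spi1 exon as kept in part in naive DKO cells and as deleted in DKO cells of both cultures, so naive DKO cells are a model of incomplete PU.1 loss. In these bulk libraries, more cells of a type and more RNA per cell cannot be told apart.

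Promoters of the members are shown first, because several carry the response elements through which ATF6 and XBP1 are known to act. Promoter windows of 300 bases (250 before and 50 after the start site, RefSeq, GRCm38.p6) were matched for 34 members. Atf6, Derl1, Hyou1 and Manf were not matched. The ER stress response element (ERSE), written CCAAT, then 9 bases of any kind, then CCACG, was searched on both strands and found in 10 of the 34 members (29.4%) and in 37 of 27025 genes with a window (0.137%). The 11 sites are given below in the orientation of the element, with 5 bases on either side in lower case and the element in capitals. Hsp90b1 holds 2 of them.
Hspa5 (chr2:34772025-34772043): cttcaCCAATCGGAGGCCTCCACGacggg
Calr (chr8:84847075-84847093): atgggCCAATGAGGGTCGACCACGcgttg
Derl3 (chr10:75893242-75893260): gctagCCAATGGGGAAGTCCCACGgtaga
Hsp90b1 (chr10:86705638-86705656): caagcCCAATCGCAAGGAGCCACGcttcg
Hsp90b1 (chr10:86705533-86705551): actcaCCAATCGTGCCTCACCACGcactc
Canx (chr11:50325800-50325818): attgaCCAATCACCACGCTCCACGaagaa
Pdia6 (chr12:17266491-17266509): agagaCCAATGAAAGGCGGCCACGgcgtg
Ero1lb (chr13:12565682-12565700): ggcggCCAATGAGGCGGGACCACGaggcc
Dnajc3 (chr14:118937827-118937845): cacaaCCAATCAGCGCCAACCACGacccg
Creld2 (chr15:88819520-88819538): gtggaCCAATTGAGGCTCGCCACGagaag
Syvn1 (chr19:6046532-6046550): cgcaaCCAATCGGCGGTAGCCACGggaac

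The variant ERSE-II, ATTGGNCCACG, was found in 2 members (5.88%) and in 0.0444% of all genes with a window, and the unfolded protein response element core TGACGTGG in 2 members (5.88%) and 0.714% of all genes. Herpud1 and Dnajb11 hold the first and Txndc5 and Txndc11 the second, and the capitals mark the element as before.
Herpud1 (chr8:94386377-94386387): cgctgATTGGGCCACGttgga
Dnajb11 (chr16:22857852-22857862): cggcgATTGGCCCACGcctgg
Txndc5 (chr13:38528045-38528052): gccgcTGACGTGGcgcta
Txndc11 (chr16:11134627-11134634): gtggcTGACGTGGagagt
Neither TGATGNAAT, the element bound by ATF4 and CHOP (1.08% of all genes), nor GAGGAAGT, a core bound by PU.1 (3.69% of all genes), was present in the windows of the 34 members. These matches describe letters in a window and not binding.

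Whole windows are given for Hspa5, which encodes BiP, the central chaperone of the response, and for Derl3 and Creld2, which had the largest called changes with CD40L+IL-4. They are written 5′ to 3′ along the gene, with the ERSE in capitals, and in Derl3 and Creld2 the element lies on the opposite strand.
Hspa5 (chr2:34771840-34772139, plus strand): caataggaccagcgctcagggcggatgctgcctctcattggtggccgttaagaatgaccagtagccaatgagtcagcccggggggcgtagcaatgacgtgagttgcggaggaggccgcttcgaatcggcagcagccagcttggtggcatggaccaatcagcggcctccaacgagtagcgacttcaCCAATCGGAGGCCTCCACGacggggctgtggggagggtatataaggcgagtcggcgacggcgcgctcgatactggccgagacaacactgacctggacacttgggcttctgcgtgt
Derl3 (chr10:75893148-75893447, plus strand): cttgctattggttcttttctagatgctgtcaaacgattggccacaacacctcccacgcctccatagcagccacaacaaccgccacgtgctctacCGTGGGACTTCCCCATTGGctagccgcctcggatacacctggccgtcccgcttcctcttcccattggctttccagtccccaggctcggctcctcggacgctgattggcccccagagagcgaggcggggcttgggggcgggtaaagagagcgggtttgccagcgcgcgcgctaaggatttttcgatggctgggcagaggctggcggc
Creld2 (chr15:88819396-88819695, plus strand): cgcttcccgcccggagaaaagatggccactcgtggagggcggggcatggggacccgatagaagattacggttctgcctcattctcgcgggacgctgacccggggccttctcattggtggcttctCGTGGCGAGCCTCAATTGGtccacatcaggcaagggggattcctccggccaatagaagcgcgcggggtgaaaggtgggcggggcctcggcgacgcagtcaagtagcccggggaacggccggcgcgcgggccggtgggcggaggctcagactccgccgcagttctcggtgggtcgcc

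Per length, members were among the more abundant transcripts. The deposited log2 RPKM (reads scaled to exon length and library size) had a median of 5.10 over the members in naive control cells, against 2.87 over all 13569 genes listed. In control cells with CD40L+IL-4 the medians were 5.62 and 2.84. In the LPS+IL-4 files, which were normalised apart from the others and list 12634 genes, they were 5.24 and 3.36. Calr, the lectin chaperone calreticulin, was highest in naive control cells with log2 RPKM of 8.73 and 8.66, followed by Hspa5 (7.73 and 7.85), the prolyl isomerase Ppib (7.74 and 7.54) and the glycoprotein disulfide isomerase Pdia3 (7.50 and 7.47). Of these, Hspa5 and Ppib overlapped, so their order is not fixed by these libraries. Calr, Hspa5, Hsp90b1, which encodes the ER Hsp90 GRP94, and Pdia3 were the 4 highest in both cultures, with Calr first with CD40L+IL-4 (9.15 and 9.26) and Hspa5 first with LPS+IL-4 (9.47 and 9.61, overlapping Calr at 9.32 and 9.59). At the low end, Pdia5, a disulfide isomerase, had log2 RPKM of -1.19 and -0.25 in naive control cells and -4.44 and -3.23 with CD40L+IL-4. Ern1 was second lowest in each of the 3 stages, at 1.51 and 0.68 in naive control cells.

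Culture of control cells changed the members in both directions. For every call between genotypes, and between cultured and naive control cells, a gene had to have an adjusted p (Benjamini-Hochberg over all genes tested) under 0.15 and a fold change over 1.5. With CD40L+IL-4, 18 members were higher than in naive cells, where 25.4% of all 13684 genes tested were called higher, and 3 were lower, where 23.4% were called lower. With LPS+IL-4, 17 members were higher (32.6% of all genes) and 9 were lower (31.3%). The CD40L+IL-4 counts were deposited in a table apart from that of the naive and LPS+IL-4 counts, so stage and table cannot be told apart with CD40L+IL-4, and the 2 comparisons share the naive control libraries.

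**Figure D1:**
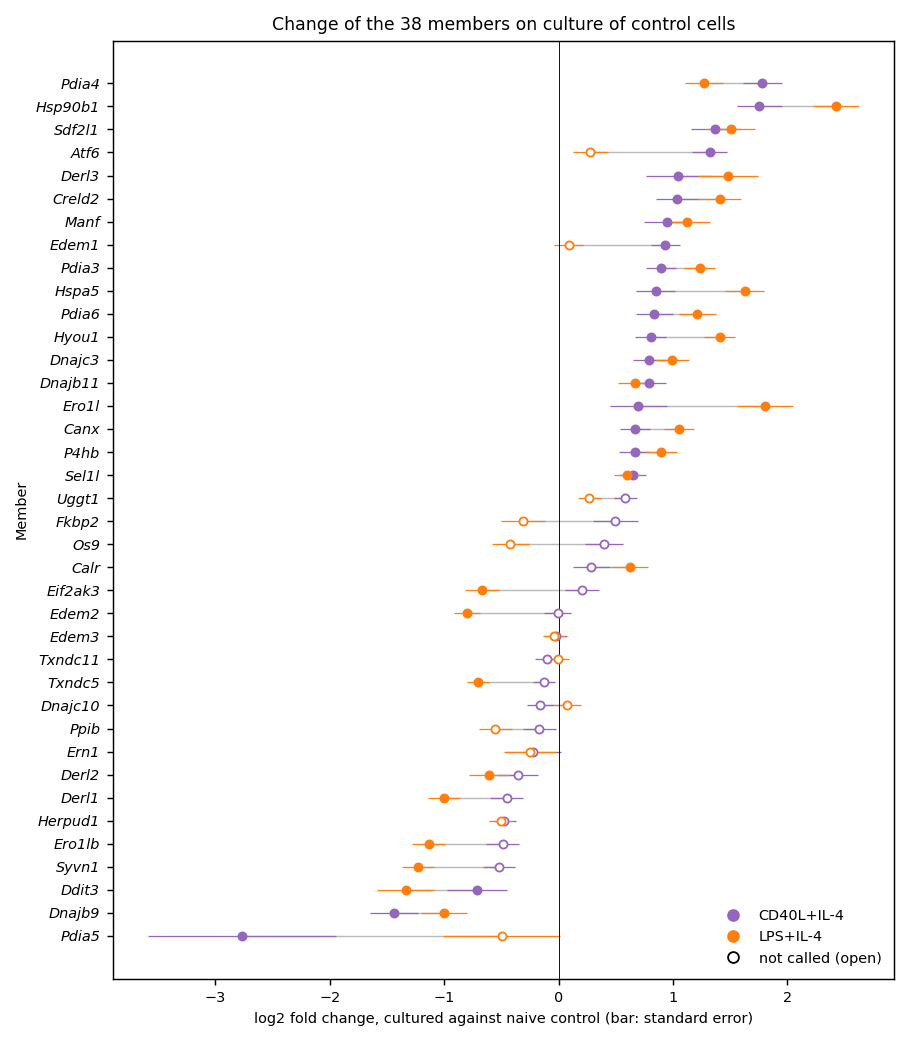
Log2 fold change of the 38 members in control cells cultured with CD40L+IL-4 (purple) or LPS+IL-4 (orange) against naive control cells, with standard errors, 2 libraries a group. Filled points were called and open points were not. Hsp90b1 (1.75 and 2.43) and Pdia4 (1.78 and 1.27) lie at the high end, and Pdia5 (-2.76 with CD40L+IL-4, called from very low counts), Dnajb9 (-1.44 with CD40L+IL-4) and Ddit3 (-0.71 and -1.34) at the low end.

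The classical chaperones rose on culture. Of 9 Hsp70 and Hsp90 chaperones and co-chaperones, 7 were higher and 1, Dnajb9, was lower in each culture. Of all genes, 25.4% were called higher and 23.4% lower with CD40L+IL-4, and 32.6% and 31.3% with LPS+IL-4. Hsp90b1 counted 292 and 345 CPM in naive control libraries (scaled here over all 24 libraries), 1031 and 1117 with CD40L+IL-4 and 1633 and 1790 with LPS+IL-4. The 3 stages did not overlap, and the log2 fold changes were 1.75 ± 0.20 (SE, adjusted p = 3.7e-07) and 2.43 ± 0.20 (adjusted p = 2.4e-09). Hspa5 followed the same order, with 591 and 629 CPM in naive cells, 954 and 1243 with CD40L+IL-4 and 1729 and 2040 with LPS+IL-4. Dnajb9, an ER DnaJ protein that works with BiP, went the other way, from 57.6 and 39.3 CPM to 15.7 and 20.2 with CD40L+IL-4 and 23.1 and 25.3 with LPS+IL-4. Ero1l, an oxidase that recharges the disulfide isomerases, was higher by 1.81 ± 0.25 (SE) with LPS+IL-4, whereas its relative Ero1lb was lower by -1.14 ± 0.14. Atf6 was called with CD40L+IL-4 only (1.32 ± 0.15, adjusted p = 6.1e-07), with LPS+IL-4 at 0.28 ± 0.15 (adjusted p = 0.11), and the difference between the cultures was not tested. Among the 10 ERAD genes, 3 were higher with CD40L+IL-4 and none was lower, and with LPS+IL-4 2 were higher and 4 were lower, including the ubiquitin ligase Syvn1 (-1.23 ± 0.14) and Edem2 (-0.80 ± 0.12). These ERAD counts, of few genes, do not stand apart from the shares over all genes given above. Ddit3 was lower in both cultures. Pdia5 had the lowest log2 fold change with CD40L+IL-4 (-2.76 ± 0.82, adjusted p = 0.0080), from 9 and 17 counts in naive control libraries to 1 and 2 counts, and was not called with LPS+IL-4 (-0.50 ± 0.51). At these counts the CD40L+IL-4 control libraries were under 0.5 CPM, so Pdia5 passed the filter of that stage only through mutant libraries. It is 1 of the 3 members called lower with CD40L+IL-4.

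In naive cells, nearly all members were uncalled in each of the mutant genotypes, of which DKO cells had kept part of the floxed Spi1 exon. PU.1 cKO cells had 3 members higher (4.18% of the 12500 genes tested were called higher) and none lower. These were Ero1l, Ero1lb and Txndc5, all of the disulfide chemistry, named here after their values were seen. Txndc5 counted 335 and 324 CPM in control and 498 and 494 CPM in PU.1 cKO libraries (log2 fold change 0.59 ± 0.10 SE, adjusted p = 0.0074), at the edge of the fold threshold. No member stayed called when control replicate 2 was left out, and 1 did when PU.1 cKO replicate 2 was left out.

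SpiB KO cells had 3 naive members higher (6.01% of genes), Pdia5, Ern1 and Edem2, and DKO cells had 4 (12.6% of genes), the same 3 and Derl3. All comparisons with control in a stage share its 2 control libraries. Pdia5 counted 0.630 and 1.21 CPM (control), 0.891 and 0.947 (PU.1 cKO), 8.44 and 6.36 (SpiB KO) and 10.9 and 9.06 (DKO). Both Spib-/- genotypes thus stood clear of the others, at 10.8-fold over control in DKO cells (3.43 ± 0.34, adjusted p = 0.00017) and with an adjusted p of 0.00084 in SpiB KO cells. Edem2, a mannose-trimming factor of ERAD, counted 74.9 and 68.8 CPM (control), 62.1 and 58.6 (PU.1 cKO), 121 and 108 (SpiB KO) and 113 and 114 (DKO). For Ern1 the values were 9.73 and 5.62, 7.32 and 8.08, 12.1 and 14.2, and 13.8 and 17.9 CPM in the same order. Derl3 had deposited log2 RPKM of 1.72 and 1.26 (control), 2.21 and 2.33 (PU.1 cKO), 1.92 and 1.89 (SpiB KO) and 2.94 and 2.00 (DKO). Its DKO libraries thus overlapped the PU.1 cKO libraries, which lay above control too. DKO cells against PU.1 cKO cells gave the same 3 genes, Pdia5, Ern1 and Edem2 (9.91% of genes called higher). In SpiB KO cells, in DKO cells and between DKO and PU.1 cKO cells, the counts of members called were near the shares over all genes. They are not read as a change of the set. Without SpiB KO replicate 1, the SpiB KO count fell from 3 to 1, and Ern1 was lost in 3 of the 4 fits that left out 1 library.

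Markers of other cell types also changed in the naive Spib-/- genotypes, and plasma cell genes are given further on. Of 10 markers of plasmacytoid dendritic cells (pDC), 9 were called higher in naive SpiB KO and 9 in naive DKO cells, and their summed level was 2005 to 2977 CPM in these 4 libraries against 371 to 489 CPM in control and PU.1 cKO libraries. T cell markers summed to 303 to 478 CPM in the Spib-/- libraries and 63.4 to 104 CPM in the other 4, macrophage markers to 49.1 to 68.8 CPM and 11.0 to 21.8 CPM, and B cell markers to 8507 to 10216 CPM and 11504 to 12677 CPM. Of 7 T cell markers tested, 3 were called higher in naive SpiB KO and 5 in naive DKO cells. Of 4 macrophage markers tested, 1 and 3 were called higher, and none of either list was lower. Of all genes, 6.01% and 12.6% were called higher in these genotypes. Among single markers, the pDC receptor Siglech counted 57.2 and 23.9 CPM (control), 33.3 and 39.9 (PU.1 cKO), 237 and 200 (SpiB KO) and 267 and 229 (DKO). The T cell gene Cd3e, by contrast, stayed at or under 0.632 CPM and the macrophage gene Csf1r near 0 (up to 1.001 CPM) in all 8 libraries. The study proposes that SpiB represses genes of other lineages within B cells. Cells of other types and expression of their genes by B cells cannot be told apart in these bulk libraries. The part of either in the levels of Pdia5, Ern1, Edem2 and Derl3 was not tested. In the cultures, the summed pDC markers were 215 to 376 CPM with CD40L+IL-4 and 209 to 240 CPM with LPS+IL-4, and not higher in DKO than in control libraries. By gene, 8 were tested in DKO cells with CD40L+IL-4, where none was called higher and 2 were lower (1170 of 12721 genes lower). Of 6 tested with LPS+IL-4, 2 were higher (13.7% of all genes) and 1 was lower (811 of 12445 genes). Siglech was at or under 0.493 CPM and Pdia5 at or under 0.951 CPM in every cultured library. Pdia5 also fell on culture of control cells with CD40L+IL-4, so stage and cell content cannot be told apart by these levels. Edem2 was called higher in DKO cells of both cultures. Summed over the 38 members, the share of all counts was 0.609% to 0.692% over the 8 naive libraries, with 0.616% and 0.636% (control), 0.609% and 0.692% (PU.1 cKO), 0.643% and 0.657% (SpiB KO) and 0.663% and 0.692% (DKO). Both Spib-/- genotypes lay above control on this scale, and PU.1 cKO libraries overlapped every other genotype. Scaled by TMM, the summed levels of control (6524 and 6432 CPM), SpiB KO (6585 and 6440 CPM) and DKO libraries (6564 and 6416 CPM) overlapped.

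With CD40L+IL-4, loss of both factors raised 20 of the 38 members and lowered none, where 9.13% of the 12721 genes tested were called higher. The median log2 fold change over the members was 0.62, against 0.00 over all genes tested. The members together took 1.04% and 1.16% of the counts (control), 1.39% and 1.54% (PU.1 cKO), 0.985% and 1.18% (SpiB KO) and 1.71% and 1.80% (DKO). DKO libraries lay above all others, and control and SpiB KO libraries overlapped. SpiB KO cells had no member called by edgeR (0.134% of genes called in either direction), none at an unadjusted p under 0.05, and none by DESeq2 or voom. PU.1 cKO cells had 10 members higher (6.27% of genes) and none lower, with a median of 0.43.

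**Figure D2:**
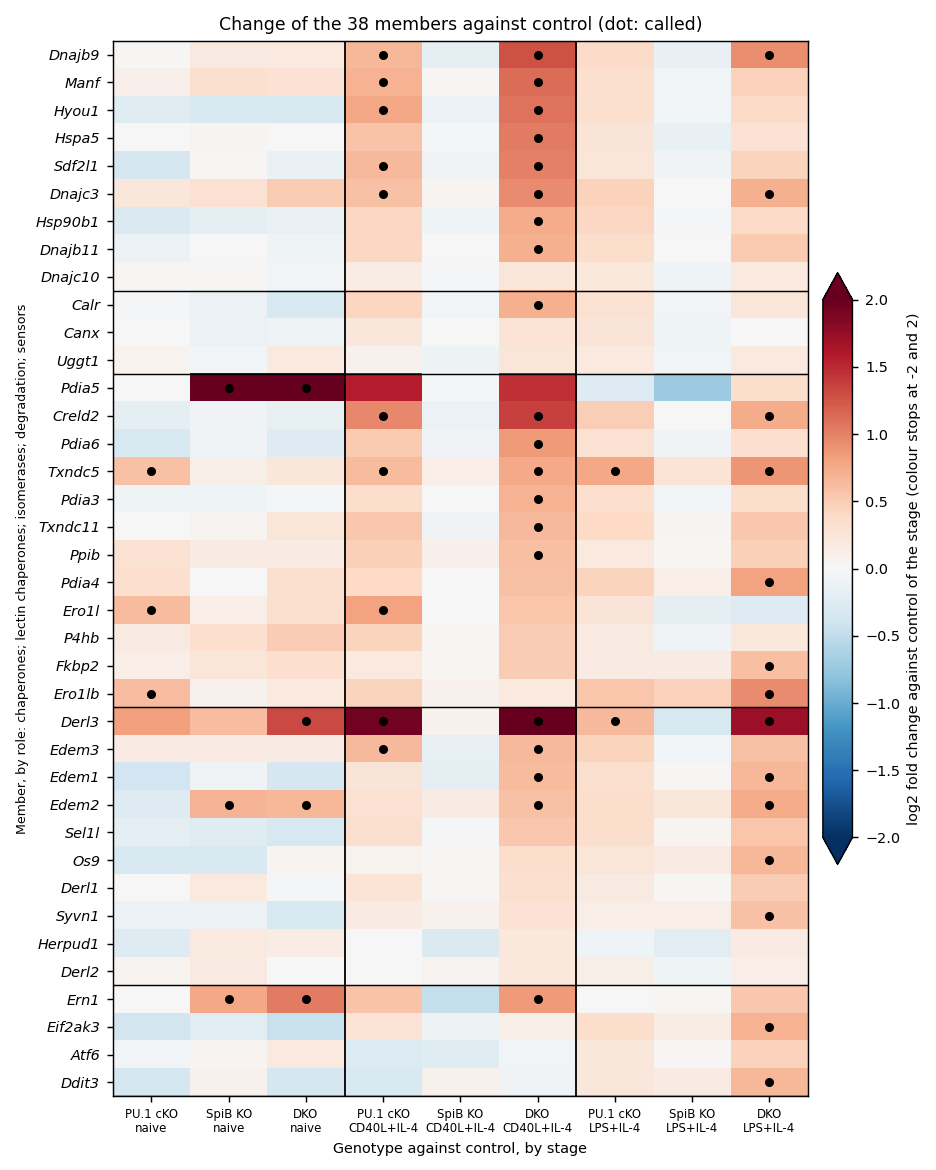
Log2 fold change of the 38 members (rows, grouped by role) for each genotype against the control of its stage (columns), as a colour that stops at -2 and 2, with a black dot where the change was called. The DKO columns of both cultures hold most dots, 20 and 14, and the SpiB KO columns of both cultures hold none.

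Among the chaperones of the Hsp70 and Hsp90 systems, 8 of 9 were called higher, with a median of 1.02. Hspa5 counted 988 and 1270 CPM (control), 1502 and 1841 (PU.1 cKO), 919 and 1282 (SpiB KO) and 2333 and 2325 (DKO). The DKO libraries stood above every other library, at 2.06-fold over control (log2 fold change 1.04 ± 0.20 SE, adjusted p = 0.0070), and PU.1 cKO libraries lay between (0.57 ± 0.20, adjusted p = 0.12, not called). Hsp90b1 counted 1068 and 1142 CPM in control and 1899 and 1802 CPM in DKO libraries (0.74 ± 0.17, adjusted p = 0.015). Hyou1, a large Hsp70 relative that exchanges nucleotide on BiP, went from 307 and 296 CPM to 652 and 624 CPM (1.08 ± 0.17) and Manf, a secreted ER stress factor, from 279 and 366 to 729 and 670 CPM (1.12 ± 0.22). Both were also called in PU.1 cKO cells, at 0.77 ± 0.17 and 0.70 ± 0.21.

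Among the DnaJ co-chaperones, Dnajb9 counted 16.2 and 20.6 CPM (control), 25.7 and 32.5 (PU.1 cKO), 13.8 and 18.7 (SpiB KO) and 50.1 and 38.8 (DKO). Its change was 1.27 ± 0.22 in DKO (adjusted p = 0.0037) and 0.67 ± 0.22 in PU.1 cKO cells (adjusted p = 0.093). Dnajc3, the p58IPK protein that also restrains PERK, counted 171 and 192, 255 and 291, 162 and 214, and 369 and 327 CPM in the same order (DKO 0.94 ± 0.17, adjusted p = 0.0054). Dnajc10, a DnaJ protein with disulfide reductase activity, was the member of the group that was not called (0.24).

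Of the lectin chaperones, Calr was called, from 1000 and 1147 CPM in control to 1675 and 1833 CPM in DKO libraries (0.71 ± 0.18, adjusted p = 0.025). Calnexin (Canx, 0.28) and the glucose-tagging enzyme Uggt1 (0.24) were not. In the group of 12 disulfide and prolyl isomerases and their partners, 6 were higher in DKO cells, with a median of 0.63. Creld2, an ER protein with disulfide isomerase activity, counted 87.7 and 99.1 CPM (control), 154 and 208 (PU.1 cKO), 68.7 and 103 (SpiB KO) and 239 and 243 (DKO) (DKO 1.37 ± 0.21, adjusted p = 0.0019). Pdia3 went from 866 and 1026 to 1604 and 1458 CPM (0.69 ± 0.17, adjusted p = 0.020) and Ppib from 161 and 206 to 292 and 267 CPM (0.61 ± 0.17, adjusted p = 0.034). Txndc5, an isomerase with thioredoxin domains, stood at 317 and 345 CPM (control), 512 and 513 (PU.1 cKO), 356 and 369 (SpiB KO) and 583 and 538 (DKO). Both genotypes without PU.1 were above the other 2 (DKO 0.76 ± 0.14, PU.1 cKO 0.63 ± 0.14).

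**Figure D3:**
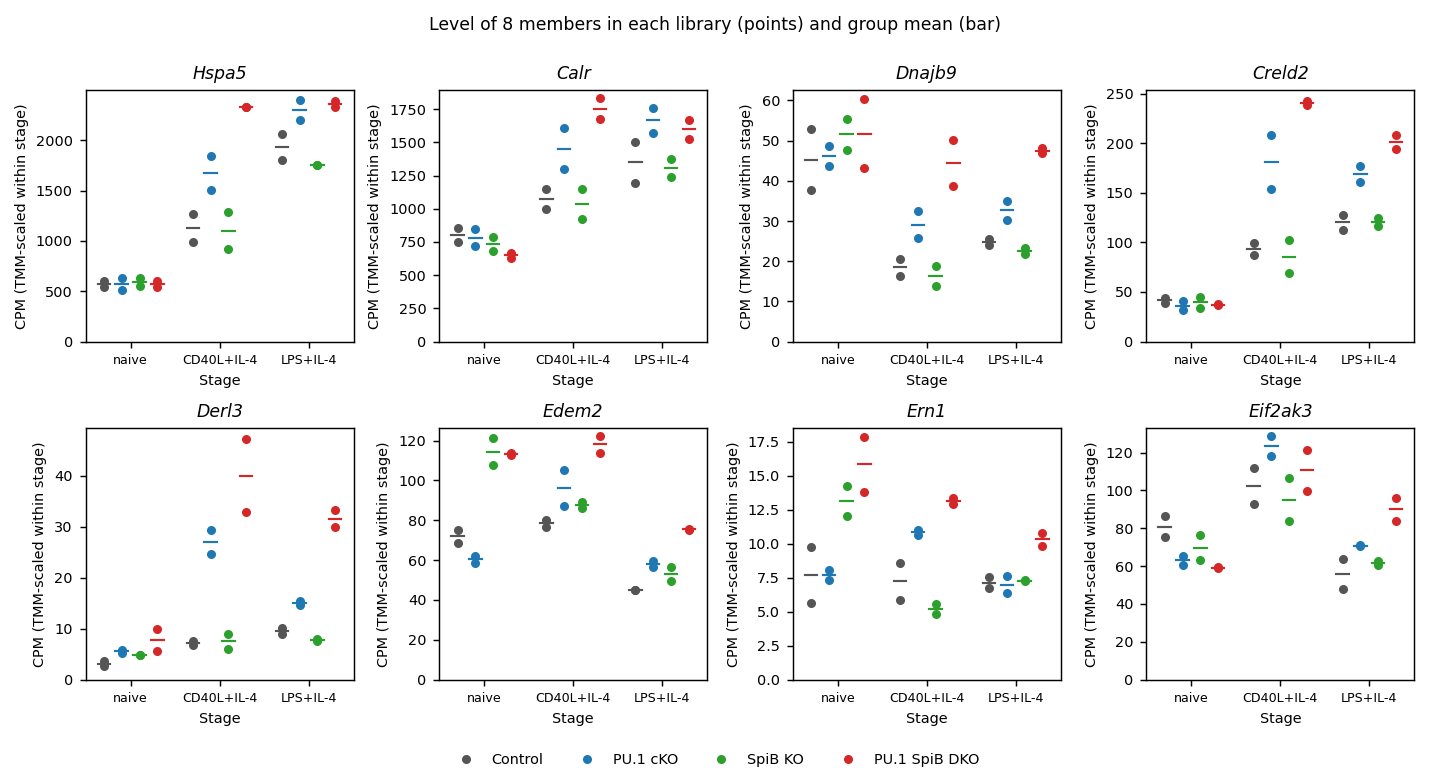
CPM of 8 members in every library (points, 2 per genotype) with the group mean (bar), by stage, on linear axes that start at 0 and scaled within each stage. With CD40L+IL-4, both DKO libraries of Hspa5, at 2333 and 2325 CPM, lie above all other libraries of the stage, and Derl3 steps from 7.54 and 6.71 CPM (control) to 24.7 and 29.4 (PU.1 cKO) and 47.1 and 32.9 (DKO).

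Of the 10 ERAD genes, 4 were higher, Derl3, Edem1, Edem2 and Edem3. Derl3, a derlin of the retrotranslocation channel that is known from secretory cells, showed the largest called change of the set, from 7.54 and 6.71 CPM (control) to 24.7 and 29.4 (PU.1 cKO) and 47.1 and 32.9 (DKO), with SpiB KO libraries at 6.01 and 9.01. This was 3.81-fold in PU.1 cKO (adjusted p = 0.00080) and 5.59-fold in DKO cells (2.48 ± 0.25, adjusted p = 0.00012). Edem1, which trims mannose to mark proteins for disposal, went from 440 and 405 to 615 and 697 CPM in DKO libraries (0.63 ± 0.17), and Edem2 from 76.8 and 80.4 to 122 and 114 CPM (0.59 ± 0.15), close to the fold threshold. Herpud1, a scaffold of the ligase complex, was not called (0.21 ± 0.15), nor were Derl1, Derl2, Syvn1, Sel1l and Os9, which ranged from 0.20 to 0.53.

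Of the 3 sensors and Ddit3, 1 was called. Ern1 was higher in DKO cells, with 8.60 and 5.87 CPM (control), 11.0 and 10.6 (PU.1 cKO), 4.83 and 5.54 (SpiB KO) and 13.4 and 13.0 (DKO) (0.86 ± 0.24, adjusted p = 0.041). Atf6 counted 239 and 213 CPM in control and 223 and 212 in DKO libraries, Eif2ak3 112 and 93.0 and 121 and 99.8, and Ddit3 8.16 and 6.92 and 8.09 and 6.38. These 3 overlapped between control and DKO cells, with log2 fold changes of -0.06 ± 0.15, 0.11 ± 0.18 and -0.06 ± 0.29.

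Leaving out 1 library at a time left 16 to 21 members called in DKO cells, and 14 of the 20 were called in all 4 fits, with Pdia3, Ppib, Dnajb11, Edem1, Edem2 and Ern1 lost in at least 1. For PU.1 cKO cells the count of 10 was less firm, at 5 without control replicate 1 and 3 without the deep PU.1 cKO replicate 2. Direct comparison of DKO with PU.1 cKO cells called no member by edgeR (4.06% of all genes called in either direction), DESeq2 or voom. Of the 38 log2 fold changes, 34 were above 0 with a median of 0.23, against 51.7% of all genes above 0 and a median of 0.01. An unadjusted p under 0.05 was seen for 4 members, with no share over all genes computed. The interaction, which asks whether the DKO change departs from the sum of the changes in PU.1 cKO and SpiB KO cells and needs an adjusted p under 0.15 alone, was called for no member by edgeR, DESeq2 or voom (5 at an unadjusted p under 0.05, and 1.17% of all genes called).

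**Figure D4:**
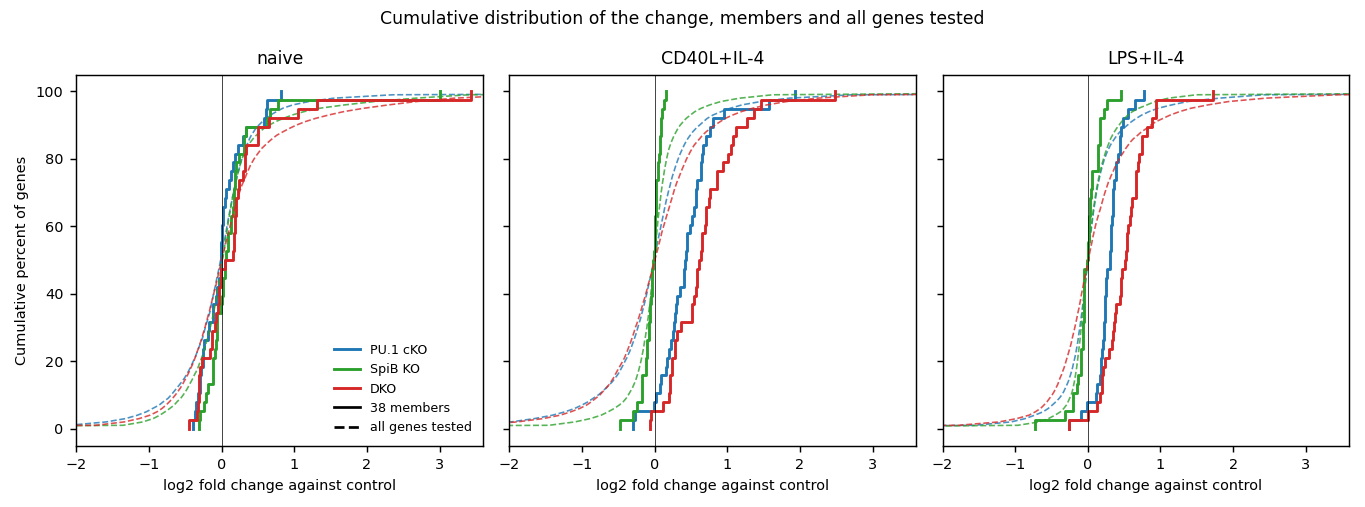
Cumulative percent of genes (y) at or below a log2 fold change against control (x), for the 38 members (solid steps) and all genes tested (dashed), by stage and genotype. The members' DKO curves lie to the right of the curves of all genes in both cultures, with medians of 0.62 and 0.51, and the SpiB KO medians of the members are -0.02 and -0.01.

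With LPS+IL-4, 14 members were higher in DKO cells and none was lower (13.7% of the 12445 genes tested were called higher), with a median log2 fold change of 0.51 over the members and 0.01 over all genes. Values were more precise than with CD40L+IL-4, the median standard error over the members being 0.093 against 0.173. Without the fold threshold, 33 members had an adjusted p under 0.15 and were higher in DKO cells with LPS+IL-4 (25.6% of all genes), and 24 did with CD40L+IL-4 (12.5% of all genes). The members took 1.22% and 1.31% of the counts (control), 1.52% and 1.58% (PU.1 cKO), 1.24% and 1.22% (SpiB KO) and 1.69% and 1.64% (DKO). SpiB KO cells had no member called by edgeR (3.19% of genes called in either direction), DESeq2 or voom, with 6 at an unadjusted p under 0.05. PU.1 cKO cells had 2 members higher (6.68% of genes), Derl3 and Txndc5, with a median of 0.30 over the members. Without the fold threshold, 23 members were higher in PU.1 cKO cells and none lower (11.2% of all genes higher), and with CD40L+IL-4 15 were higher and none lower (7.81% of all genes).

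Only 2 of the 9 chaperones of the Hsp70 and Hsp90 group, Dnajb9 and Dnajc3, were called with LPS+IL-4. Dnajb9 counted 24.1 and 25.6 CPM (control), 30.2 and 35.1 (PU.1 cKO), 21.8 and 23.4 (SpiB KO) and 47.0 and 48.1 (DKO) (DKO 0.93 ± 0.11, adjusted p = 0.00019). Dnajc3 counted 201 and 215, 278 and 295, 205 and 214, and 343 and 337 CPM in the same order (DKO 0.71 ± 0.08, adjusted p = 0.00016). Hspa5 counted 1802 and 2064 CPM (control), 2204 and 2403 (PU.1 cKO), 1751 and 1753 (SpiB KO) and 2328 and 2385 (DKO). DKO libraries lay above control by 1.22-fold only (0.29 ± 0.11, adjusted p = 0.064). Hsp90b1 (1702 and 1812 CPM in control, 2401 and 2160 in DKO libraries) and Pdia3 (1150 and 1234, then 1530 and 1506 CPM) also stayed under the fold threshold, at 0.38 ± 0.11 and 0.35 ± 0.09. For Calr the gap between the groups was narrow, with 1196 and 1504 CPM in control and 1529 and 1666 CPM in DKO libraries (0.24 ± 0.13, adjusted p = 0.18).

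Among the other roles, ERAD genes had 5 calls with LPS+IL-4 and the sensors with Ddit3 had 2. Of the 10 ERAD genes, Derl3, Edem1, Edem2, Syvn1 and the glycoprotein receptor Os9 were higher. Derl3 counted 8.99 and 10.1 CPM (control), 15.5 and 14.7 (PU.1 cKO), 7.47 and 7.99 (SpiB KO) and 33.2 and 30.0 (DKO) (DKO 3.29-fold, 1.72 ± 0.12, adjusted p = 1.5e-05). Edem1 went from 231 and 237 to 376 and 365 CPM (0.66 ± 0.07) and Edem2 from 45.2 and 45.2 to 75.7 and 75.2 CPM (0.74 ± 0.09). Eif2ak3 counted 63.8 and 48.0 CPM (control), 71.1 and 70.4 (PU.1 cKO), 62.5 and 60.6 (SpiB KO) and 96.2 and 83.9 (DKO) (0.69 ± 0.13, adjusted p = 0.0030). Ddit3 was called at 6.22 and 3.74 CPM in control against 8.69 and 6.71 CPM in DKO libraries (0.66 ± 0.26, adjusted p = 0.075) but was lost in 2 of the 4 fits that left out 1 library. Atf6 (112 and 107, then 161 and 139 CPM) and Ern1 (7.52 and 6.73, then 10.8 and 9.86 CPM) were higher by 0.46 ± 0.09 and 0.54 ± 0.15, under the fold threshold.

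In the isomerase group 5 of 12 were called, Txndc5, Creld2, Pdia4, Ero1lb and the prolyl isomerase Fkbp2. Txndc5 stood at 221 and 222 CPM (control), 375 and 383 (PU.1 cKO), 258 and 276 (SpiB KO) and 429 and 392 (DKO) (DKO 0.89 ± 0.08, PU.1 cKO 0.77 ± 0.08). Creld2 counted 112 and 128, 161 and 177, 116 and 124, and 209 and 194 CPM in the same order (DKO 0.74 ± 0.09). Ero1lb was raised from 105 and 87.6 to 192 and 178 CPM (0.94 ± 0.10), while Ero1l went from 77.8 and 91.1 to 70.9 and 71.1 CPM (-0.25 ± 0.10, adjusted p = 0.077, under the fold threshold) and was the lowest of the 38. Ppib went from 139 and 141 to 190 and 199 CPM (0.47 ± 0.08), under the fold threshold as well. The count of 14 was 12 to 16 when 1 library was left out, and 10 of the 14 were called in all 4 such fits.

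Direct comparison of DKO with PU.1 cKO cells called Derl3 alone with LPS+IL-4 (2.09-fold, adjusted p = 0.00088, with 9.12% of genes called higher), and 3 members when either PU.1 cKO library was left out. The interaction was called for 3 members, all above 0 (0.683% of genes called higher). They were Derl3 (1.38 ± 0.17, adjusted p = 0.0083), Dnajb9 (0.69 ± 0.15, adjusted p = 0.11) and Herpud1 (0.47 ± 0.10, adjusted p = 0.12). For Derl3 and Dnajb9 the DKO libraries exceeded what the changes in PU.1 cKO and SpiB KO cells add up to. SpiB KO cells carry floxed Spi1 and no Cre, unlike control cells, and the interaction cannot separate these differences from the loss of SpiB. Herpud1 counted 150 and 151 CPM (control), 137 and 145 (PU.1 cKO), 129 and 132 (SpiB KO) and 166 and 172 (DKO), so the single mutants were below control and DKO cells above. Derl3 was called in all 8 fits that left out 1 library, and Dnajb9 and Herpud1 were each lost in 7 of the 8. Same-numbered LPS+IL-4 libraries deviated together, although the labels state no pairing. The calls given for this stage come from fits without a replicate block. With the block, the interaction was called for 7 members, which added Edem1 (0.32), Syvn1 (0.31) and Os9 (0.26) above 0 and Ero1l (-0.32) below. The block left 14 members called against control in DKO cells and 2 in PU.1 cKO cells, as without it. In naive cells the interaction was called for no member by edgeR or voom (0.936% of all genes called) and for 1 by DESeq2, with 3 at an unadjusted p under 0.05.

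The lists of members called in DKO cells overlapped in part between the cultures. A group of 7 members, Dnajb9, Dnajc3, Creld2, Txndc5, Edem1, Edem2 and Derl3, were called in both, 35% of the 20 called with CD40L+IL-4 and 50% of the 14 called with LPS+IL-4, and 27 were called in at least 1. The same overlap over all genes was not computed, so these shares have no background. Each list also rests on the fold threshold. Without it, 24 members were higher with CD40L+IL-4 (12.5% of all genes) and 33 with LPS+IL-4 (25.6%). The difference of the DKO change between the cultures was tested in 1 fit of all 24 libraries, at an adjusted p under 0.15. It was called for 12 of the 38 members, against 28.6% of all genes in either direction. For 2 of them, Ero1lb (0.67 ± 0.20, adjusted p = 0.032) and Eif2ak3 (0.50 ± 0.21, adjusted p = 0.11), the change was larger with LPS+IL-4. The other 10, Hspa5, Calr, Pdia3, Pdia6, Sdf2l1, Manf, Creld2, Hyou1, Ero1l and Derl3, moved more with CD40L+IL-4. Hspa5 (-0.84 ± 0.23, adjusted p = 0.022) and Hyou1 (-0.77 ± 0.19, adjusted p = 0.011) were called in all 8 fits that left out 1 library, and the other 10 were each lost in at least 2. Without control LPS+IL-4 replicate 2, 2 members were called. Without DKO LPS+IL-4 replicate 1 the count was 4, and it was 5 without control CD40L+IL-4 replicate 1 and 5 without DKO CD40L+IL-4 replicate 2. With the replicate block, 17 members were called, the same 12 and Hsp90b1 (-0.45), P4hb (-0.38), Canx (-0.36), Atf6 (0.43) and Ddit3 (0.64).

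**Figure D5:**
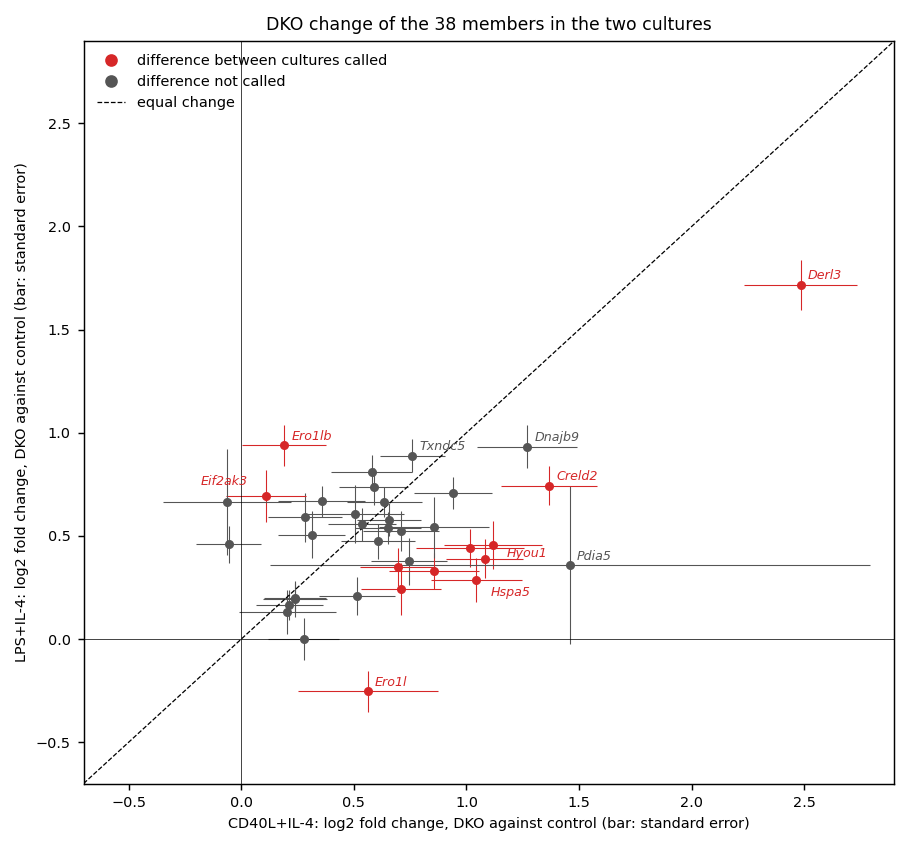
Log2 fold change of DKO against control cells with CD40L+IL-4 (x) and with LPS+IL-4 (y) for the 38 members, with standard errors and the line of equal change. Red marks the 12 members whose DKO change differed between the cultures at an adjusted p under 0.15. Hspa5 (1.04 and 0.29) and Hyou1 (1.08 and 0.39) lie below the line, and Ero1lb (0.19 and 0.94) and Eif2ak3 (0.11 and 0.69) above it.

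Against the naive stage, the DKO change with CD40L+IL-4 was larger for 19 members and smaller for none (7.16% of all genes called larger). The groups compared differ in Spi1 deletion as well as in stage, since it was incomplete in naive DKO cells, and these cannot be told apart. Hyou1 (1.41 ± 0.19, adjusted p = 5.2e-05), Creld2 (1.54 ± 0.26, adjusted p = 0.00060) and Hspa5 (1.06 ± 0.24, adjusted p = 0.0061) were among them. Hspa5 counted 544 and 601 CPM in naive control and 541 and 603 CPM in naive DKO libraries, which overlapped, and Creld2 39.3 and 43.5 against 37.4 and 36.9 CPM (-0.16 ± 0.18). The count was 15 to 19 when 1 library was left out.

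By promoter, 7 of the 10 members with an ERSE were called in DKO cells with CD40L+IL-4, with a median log2 fold change of 0.80, and 11 of the 24 with a window but no ERSE, with a median of 0.58. With LPS+IL-4, 5 of the 10 (median 0.48) and 9 of the 24 (median 0.54) were called. The members with the element ranged from 0.19 to 2.48 with CD40L+IL-4. Hspa5, Hsp90b1, Calr, Pdia6, Dnajc3, Creld2 and Derl3 were called there, and Canx, Syvn1 and Ero1lb, whose elements are printed above, were not. Members with and without the element overlapped widely, and no test was made of the difference.

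Other genes of the pathway moved in part with the members. The following lists were chosen with earlier results of these data known. Of 22 further regulators of the response and genes of the PERK branch, 4 were higher and none lower in DKO cells with CD40L+IL-4 (9.13% of all genes called higher), and 9 were higher and 2 lower with LPS+IL-4 (13.7% of all genes called higher), with medians of 0.33 and 0.11. Xbp1 counted 807 and 955 CPM (control), 1113 and 1300 (PU.1 cKO), 755 and 1014 (SpiB KO) and 1643 and 1796 (DKO) with CD40L+IL-4 (DKO 0.96 ± 0.19, adjusted p = 0.0065). With LPS+IL-4 it counted 365 and 363, 674 and 750, 403 and 448, and 1059 and 1085 CPM (DKO 1.56 ± 0.09, adjusted p = 5.0e-06). These gene counts do not separate spliced from unspliced Xbp1. Atf4 counted 111 and 80.3 CPM in control and 133 and 120 CPM in DKO libraries with CD40L+IL-4 (0.40 ± 0.18) and 183 and 178 against 185 and 164 CPM with LPS+IL-4 (-0.05 ± 0.11), neither called. Wfs1, which encodes the ER membrane protein wolframin, was higher in DKO cells by 1.19 ± 0.19 and 1.99 ± 0.18, and Atf5 and the BH3-only gene Bcl2l11 were higher in both cultures, by 0.90 and 0.73 with CD40L+IL-4 and by 0.83 and 0.65 with LPS+IL-4. Creb3l2 (1.66 ± 0.20) was higher with LPS+IL-4. Creb3l1, 1 of the 9 called there (1.6 ± 0.56), was at or under 0.668 CPM in every LPS+IL-4 library. That is close to the filter of 0.5 CPM, and its call is not read as a result. Atf3, a target of ATF4, was lower there, from 14.6 and 21.7 CPM in control to 4.41 and 4.36 CPM in DKO libraries (-2.06 ± 0.20), as was the BH3-only gene Bbc3 (-0.71 ± 0.18).

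Of 52 other ER folding and ERAD genes, 50 were in the tables and 48 were tested with CD40L+IL-4, where 11 were higher and 1 lower in DKO cells, and 47 with LPS+IL-4, where 6 were higher and 1 lower, with medians of 0.22 and 0.20. Of all genes, 9.13% were called higher with CD40L+IL-4 and 13.7% with LPS+IL-4, so the 6 of 47 are no more than the background. Fkbp11 (1.84 and 1.32), the plasma cell chaperone partner Mzb1 (1.6 and 0.90), Hspa13 (1.14 and 0.72) and the low Ppic (3.16 and 2.99, at most 2.86 CPM in these cultures) were higher in both cultures. Cnpy3, a chaperone of Toll-like receptors, was lower in both, from 154 and 166 to 56.3 and 55.4 CPM with CD40L+IL-4 (-1.52 ± 0.17) and from 128 and 120 to 57.4 and 70.5 CPM with LPS+IL-4 (-0.95 ± 0.11).

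Plasma cell genes rose in the same libraries. Of the 14 listed (14 tested with CD40L+IL-4, 13 with LPS+IL-4), which hold Xbp1, Mzb1, Fkbp11 and Creb3l2 of the lists above, 10 were higher and none lower in DKO cells in each culture, and Prdm1, Irf4, Xbp1 and Ell2 are genes that the study itself singled out in these samples. Their summed level was 2310 and 2730 CPM (control), 3847 and 4255 (PU.1 cKO), 2365 and 3077 (SpiB KO) and 5199 and 5319 (DKO) with CD40L+IL-4, and 1558 and 1680, 2489 and 2762, 1655 and 1756, and 3557 and 3479 CPM with LPS+IL-4. Prdm1 counted 8.33 and 9.12 CPM (control), 48.8 and 52.9 (PU.1 cKO), 5.03 and 6.06 (SpiB KO) and 45.4 and 50.6 (DKO) with CD40L+IL-4. In PU.1 cKO and DKO cells its changes were 2.55 ± 0.18 and 2.46 ± 0.18, whereas with LPS+IL-4 they were 1.17 ± 0.12 and 1.58 ± 0.12. Irf4 changed by 0.64 ± 0.23 and 0.71 ± 0.10 in DKO cells of the 2 cultures, and Bhlha15, a factor of secretory cells, by 3.43 ± 0.38 and 2.46 ± 0.14. B cell markers summed to 6737 and 8352 CPM in control and 5087 and 4118 CPM in DKO libraries with CD40L+IL-4, and to 4702 and 4091 against 4178 and 4115 CPM with LPS+IL-4. Macrophage markers summed to 37.8 to 56.4 CPM in control and SpiB KO libraries with CD40L+IL-4 and to 4.21 to 8.95 CPM in PU.1 cKO and DKO libraries, with Csf1r and Cd14 at 0 in all 8. T cell markers summed to 43.6 and 40.1 CPM in control and 70.7 and 61.1 CPM in DKO libraries with CD40L+IL-4, and to 19.9 and 18.8 against 62.4 and 66.7 CPM with LPS+IL-4, where both of the 2 tested among the 8 listed were called higher. Lck, a kinase that some B cells express too, made up 67.9 and 58.5 CPM and 60.6 and 63.3 CPM of the DKO sums, whereas Cd3e had no count in the control and DKO libraries with LPS+IL-4 and stayed at or under 0.263 CPM in those with CD40L+IL-4. Sdc1, which encodes CD138, counted 4.30 and 4.19 CPM (control) and 19.5 and 17.4 CPM (DKO) with CD40L+IL-4, and 8.56 and 7.59 against 8.26 and 7.60 CPM with LPS+IL-4. Sorting had kept CD138- cells, and the part of cells on the way to plasma cells in the members' levels was not tested.

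Spans of 11 members overlap that of another protein-coding gene in the annotation, among them Hspa5, Pdia3, Pdia6, Txndc5, Ppib and Ddit3. Whether counting used the strand is not given in the sources used here, so reads from shared stretches cannot be assigned to one gene or the other.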

How the data were processed

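B cells were sorted as CD3- B220+ CD138- cells, and the study gives 2 biological replicates per group. The deposited counts (27179 genes) were made by the authors, who used Subread on GRCm38/mm10 and featureCounts on RefSeq exons, from reads with 1 mapped place only. Versions are not given in the sources used here. The deposited log2 RPKM values were computed by the authors per library, and were used here only to rank genes per length and as a filter. One extraction text, for CD40L+IL-4 cells, is attached to all samples.

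Counts were fitted with edgeR 4.0.16 (quasi-likelihood, TMM, R 4.3.3), the 8 libraries of a stage together, and all 24 for comparisons across stages, after a filter of 0.5 CPM in at least 2 libraries. Entries with a gene ID but no symbol (517, 0.162% of counts) stayed in library sizes and tests. Calls needed an adjusted p under 0.15 and a fold over 1.5, as in the study's methods, or the adjusted p alone for interactions and differences between stages. Standard errors were taken from the F statistic. The tests were tested on simulated data. Alternatives were RLE scaling, no filter, DESeq2 1.42.0, voom with quantile normalization (limma 3.58.1), a replicate block, an adjusted p under 0.05, a mean log2 RPKM above 0 and leaving out each library.

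Same-numbered libraries deviated together with LPS+IL-4 (all 6 correlations of deviations from 0.386 to 0.514), which may reflect pairing, though the labels state none. The main fits held no replicate block. The correlations were weaker in the naive stage (0.0918 to 0.250, 5 of 6 over 0.1) and with CD40L+IL-4 (-0.0702 to 0.266, 4 of 6 over 0.1).

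Per-library values were given for members called in DKO cells in both cultures or in an interaction, the 4 most abundant per length in control cells of each stage, and Atf6, Ern1, Eif2ak3 and Ddit3, and pathway genes were limited to 4 per direction, with Xbp1, Atf4, Prdm1, Irf4 and Bhlha15 always given. A few other members were named after their values were seen. Members, lists and tests were chosen with earlier results of these data known. With 2 libraries per group, p-values rest on the spread between these libraries. Counts of members at an unadjusted p under 0.05 have no share over all genes beside them, since none was computed, and are not read as results.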

Additional observations from a re-analysis of the deposited data

Results flagged for a closer look

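Changes that differed between stages or genotypes by a test of the difference itself were called in 34 cases, given here on the log2 scale with 2 libraries a group. Of these, 12 are differences between the cultures, a share of the 38 members near the background (28.6% of all genes called), and 10 of the 12 were lost when 1 library was left out. The DKO change with LPS+IL-4 minus that with CD40L+IL-4 was -0.90 for Ero1l, -0.85 for Derl3, -0.84 for Hspa5, -0.77 for Hyou1, -0.74 for Manf, -0.71 for Creld2, -0.66 for Sdf2l1, -0.61 for Pdia6, -0.55 for Calr and -0.43 for Pdia3, and 0.50 for Eif2ak3 and 0.67 for Ero1lb.

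The DKO change with CD40L+IL-4 minus that in naive cells, where Spi1 deletion was incomplete, was called for 19 members (7.16% of all genes called larger), of which 6 were lost in at least 1 fit without a library. It was 0.43 for Txndc11, 0.51 for Edem3, 0.55 for Txndc5, 0.58 for Eif2ak3, 0.61 for Syvn1, 0.74 for Pdia3, 0.82 for Dnajb11, 0.85 for Manf, 0.87 for Sel1l, 0.88 for Hsp90b1, 0.99 for Edem1, 1.03 for Calr, 1.06 for Hspa5, 1.10 for Dnajb9, 1.14 for Pdia6, 1.17 for Sdf2l1, 1.2 for Derl3, 1.41 for Hyou1 and 1.54 for Creld2.

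The interaction with LPS+IL-4, called for 3 members (0.683% of all genes called higher) of which 2 were lost without some library, was 0.47 for Herpud1, 0.69 for Dnajb9 and 1.38 for Derl3.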

How the results depend on the processing

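No value of a member or named gene changed sign among those called, under any alternative run. The count of members called moved by over 1.5 times in these cases. At an adjusted p under 0.05 it was 5 in PU.1 cKO cells with CD40L+IL-4 (10 as reported), 1 in the interaction with LPS+IL-4 (3) and 3 in the difference of the DKO change between cultures (12). For the interaction in naive cells (0) it was 2 with no filter on low counts and 1 with DESeq2. With voom it was 1 in PU.1 cKO cells with LPS+IL-4 (2). With the replicate block it was 3 in the naive interaction, 1 for DKO against PU.1 cKO cells with CD40L+IL-4 (0) and 7 in the interaction with LPS+IL-4, and in the difference between cultures it added Hsp90b1, Canx, P4hb, Atf6 and Ddit3 to the 12. The block, whose pairing rests on the data with LPS+IL-4 and is weaker in the other stages, cost no member a call.

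Leaving out 1 library gave 0 to 4 members in naive PU.1 cKO cells, 1 to 3 in naive SpiB KO cells, 0 to 3 in the naive interaction, 3 to 13 in PU.1 cKO cells with CD40L+IL-4, 0 to 1 in SpiB KO cells with LPS+IL-4, 1 to 3 for DKO against PU.1 cKO cells with LPS+IL-4, 1 to 4 in the interaction there and 2 to 15 in the difference between cultures. The cause of these shifts was not tested. With 2 libraries a group, changes under 1.5-fold are seldom resolved with CD40L+IL-4, where the median standard error of the members' DKO change was 0.173. Pdia5 is too low there to be compared.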
